A study of Homo sapiens with 2 samples.

Results

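The mRNAs of 45 proteins of the cytosolic large ribosomal subunit, from RPL3 to RPLP2, were followed in the RNA that co-precipitated with LRPPRC from A549 cells, a lung adenocarcinoma line. The members were taken by gene name from a fixed list. All 45 had a value among the 16770 gene names of the deposited table, which has 21262 rows in all. Lysates of wild-type cells were incubated with 2 μg of anti-LRPPRC antibody and with protein A/G beads for 4 h. Libraries were made from 250 pg to 10 ng of RNA per sample, according to the labels, with a stranded total RNA kit. There was 1 condition with 2 libraries, replicate 1 and replicate 2. The study calls them biological replicates and the series description calls them technical, so the spread between them may be technical only.

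The large subunit of the ribosome holds the peptidyl transferase centre, which is made of RNA, and the tunnel through which the new chain leaves. Its proteins are made in the cytoplasm from short, abundant mRNAs, most of which start with a run of pyrimidines called a terminal oligopyrimidine (TOP) tract, and they are assembled with ribosomal RNA in the nucleolus. LRPPRC is a pentatricopeptide repeat protein best known for keeping mitochondrial mRNAs stable. Ribosomal protein genes have left many processed pseudogenes in the human genome, intronless copies that can share reads with the gene itself.

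The unit is FPKM, a count of fragments divided by transcript length and by how many fragments of that library were mapped. Values tell how much of an mRNA, per length, was in the precipitate, and not its enrichment over the cell. Libraries of input RNA or control IgG were not analysed here, so a transcript that is scarce in the cells and one that is little precipitated cannot be told apart. Nor can a lower content of RNA per cell be told apart from fewer cells of a kind. Summed FPKM was 196627 in replicate 1 and 194839 in replicate 2, and the depth of the libraries is unknown. With 1 condition no test between conditions was possible, and the values below describe these libraries. Of the epithelial markers, KRT8 had 337 FPKM and KRT18 51.1, whereas CDH1 had 1.33 and EPCAM 0.430. COL1A1 and PECAM1, markers of fibroblasts and endothelium, were at 0.696 and 0.192 FPKM.

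The start of transcription is the sequence feature that ribosomal protein mRNAs are known to share. The first bases are therefore shown for 6 high and 6 low members of the list, among them 1 high and 1 low member without a run of at least 5 from the first base. Each line runs 5′ to 3′ from 5 bases before the start that RefSeq annotates on GRCh38.p14 to base 20 of the transcript, and the capitals mark the unbroken run of C and T from the first transcribed base. The first 6 lines are members with more than 100 FPKM and the last 6 are members with less than 10. RPL3 and RPL10A are those without such a run at the first base.
RPLP0, chr12:120201092-120201116, minus strand: gaggcCCTTCTCTCgccaggcgtcc
RPL39, chrX:119791611-119791635, minus strand: agcttCCCTCCTCTTCCTTTCTCCg
RPL12, chr9:127451387-127451411, minus strand: tccggCCTCTCggctttcggctcgg
RPL13A, chr19:49487603-49487627, plus strand: tcctcCTTTTCCaagcggctgccga
RPL7A, chr9:133348213-133348237, plus strand: ctttcCTTTCTCTCTCCTCCCgccg
RPL3, chr22:39319604-39319628, minus strand: ccggcCTCTaccggcgggatttgat
RPL10A, chr6:35468396-35468420, plus strand: atgctagtctcttttccggttagcg
RPLP1, chr15:69452813-69452837, plus strand: gagagCCCCTTTCCTCagctgccgc
RPL14, chr3:40457334-40457358, plus strand: tcttcCTTCTCgcctaacgccgcca
RPL21, chr13:27251553-27251577, plus strand: tctttCCTTTCggccggaaccgcca
RPL27A, chr11:8682787-8682811, plus strand: ccttcCTTTTTCgtctgggctgcca
RPL35A, chr3:197950185-197950209, plus strand: tcgtcCTTCTCTTaccgccatcttg

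Of these lines, only that of RPL10A has no pyrimidine at the start, and the run of RPL3 stops after 4 bases. RPL15, high in the order, and RPL32, low in it, also had no such run from the first base of any annotated start. A run need not begin at that base, however, and in the line of RPL10A a longer one begins a few bases further on. RefSeq promoters were matched for 38 of the 45 members, all but RPL5, RPL7, RPL8, RPL23, RPL23A, RPL30 and RPL37. A start at C with a run of at least 5 pyrimidines, read on the transcribed strand, was annotated for 28 of them (73.7%), against 5.14% of the 27305 genes with a promoter in the table and 7.32% of the 41 mitochondrial large subunit genes with one. The share was similar, 76.9%, in the 26 small subunit genes with a promoter and 77.8% in the 9 other genes of TOP mRNAs with one. Anywhere from 10 bases before to 30 after a start, a run of at least 8 pyrimidines was found for 34 of the 38 (89.5%), RPL10A, RPL15 and RPL32 included, against 18.6% of all genes in the table. For the small subunit and the other TOP mRNAs this share was 88.5% and 77.8%. The 28 members with the run at the first base had levels from 3.02 to 395 FPKM, with a median of 29.3. The other 10 had levels from 4.08 to 206 FPKM, with a median of 36.8. Both sets thus reached from low to high levels, and the annotated start need not be the one used in A549 cells.

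The mRNAs of the large subunit spanned a wide range in LRPPRC RIP. At the top, RPLP0, the scaffold protein of the stalk, reached 386 FPKM in replicate 1 and 403 in replicate 2. At the bottom RPL35A, a protein affected in some forms of Diamond-Blackfan anemia, reached 3.18 and 2.87. The ratio of these means was 131. The mean of 25 of the 45 members was above FPKM 30, the threshold the study used, against 13.3% of the 10631 gene names with a mean of at least 1 FPKM and 6.73% of all rows. The same 25 members were above it in each library alone. Their list had a median of 33.7 FPKM, where the median of the 10631 names was 6.60. Even the lowest member, RPL35A, stood above 53.3% of all gene names in the table. Levels varied within the list, where 11 members had less than 10 FPKM and 8 had more than 100.

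All FPKM summed, the 45 mRNAs accounted for 1.40% of replicate 1 and 1.46% of replicate 2. The sum was unevenly spread. The 10 highest held 68.1% of it in replicate 1 and 69.1% in replicate 2. The 5 highest, RPLP0, RPL39, RPL12, RPL15 and RPL41, held 46.0% and 47.7%. The 20 members that were not above FPKM 30 together held 7.83% and 7.76%. In the whole table, RPLP0 ranked 31 of 16770 names by mean and RPL35A ranked 7829.

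No member changed sides of the threshold between the libraries. Just above it lay RPL27, at 33.72 FPKM in both libraries, RPL7, at 33.55 and 33.57, and RPL17, at 32.9 and 31.5. Just below it lay RPL24, at 25.7 and 23.3, RPL23A, at 23.7 and 23.5, and RPL9, at 19.05 and 19.2. No member had a mean between 24.5 and 32.2 FPKM. Over the whole order, the values of the libraries overlapped between 19 of the 44 pairs of neighbours, among them RPL39 and RPL12, RPL19 and RPLP2, and RPL4 and RPL30, so the order within these pairs is not settled by 2 libraries.

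The stalk showed a wide contrast within one structure. The stalk recruits elongation factors to the ribosome, and is built of RPLP0, 2 acidic partners, RPLP1 and RPLP2, and RPL12 at its base. RPLP0 had 395 ± 12.0 FPKM (SD, n = 2). RPL12 had 257 FPKM in replicate 1 and 252 in replicate 2. The acidic protein RPLP2 had 80.8 and 80.4 FPKM. The other acidic protein, RPLP1, had 8.68 and 8.59. RPLP0 was thus 45.7 times RPLP1 and 4.90 times RPLP2 by mean, and the libraries of these 4 mRNAs did not overlap. RPLP1 and RPLP2 are bound to RPLP0 as heterodimers in the ribosome, yet their mRNAs differed by 9.31 times in replicate 1 and 9.35 times in replicate 2. Multiplied by transcript length, RPLP2 was 3.67 times RPLP1, RPLP0 was 43.1 times RPLP1 and 11.7 times RPLP2, and RPLP0 was 2.70 times RPL12, against 1.55 times by FPKM.

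RPL5 and RPL11, which join the 5S ribosomal RNA before it enters the subunit and can also bind MDM2, were close to each other. RPL5 had 45.8 FPKM in replicate 1 and 48.1 in replicate 2. RPL11 had 41.4 and 41.9, so that the ratio of RPL5 to RPL11 was 1.11 and 1.15. The gap was small but the libraries did not overlap. RPL10A, the protein of the mobile L1 stalk, where the emptied tRNA leaves, was low, at 9.45 and 9.33 FPKM.

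Among proteins near the catalytic centre and the tRNA sites, RPL3, which reaches towards the peptidyl transferase centre, was the highest. It had 134 FPKM in replicate 1 and 129 in replicate 2. RPL8, the partner of the catalytic RNA on the other side, had 38.7 and 34.5. RPL36A, at the exit site of the tRNA, had 36.1 and 33.04, and RPL10, which is inserted last and completes the catalytic centre, had 12.0 and 11.9. RPL3 thus stood above the others, and RPL8 and RPL36A overlapped.

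The proteins that line or surround the exit tunnel had a median of 51.6 FPKM, and 6 of 8 were above FPKM 30. RPL39, a very short protein inside the tunnel, had 243 FPKM in replicate 1 and 286 in replicate 2. The libraries of this mRNA lay wider apart than those of most members. RPL19 had 80.5 and 88.4 FPKM, and RPL35, at the rim where the signal recognition particle docks, had 82.3 and 72.9. These 2 mRNAs overlapped. RPL26 followed with 58.0 and 61.7, RPL4 with 43.4 and 43.3, and RPL17 with 32.9 and 31.5. Below the threshold were RPL23A, the docking site of the signal recognition particle and the translocon, and RPL31, at 14.6 and 15.4 FPKM.

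Of the proteins that touch the small subunit, RPL41, the shortest protein of the ribosome, was the highest. It had 182 FPKM in replicate 1 and 196 in replicate 2. RPL30 had 39.9 and 44.6 FPKM, RPL24 had 25.7 and 23.3, and RPL23 had 7.16 and 18.5. The table holds 2 rows named RPL41. The other one had 110 and 126 FPKM, and the row with the higher mean was used.

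The remaining 22 members, most of them on the solvent side, had the lowest median of the larger groups, 13.5 FPKM, and 9 of them were above FPKM 30. RPL15, at 196 and 216 FPKM, RPL13A, at 172 and 174, and RPL7A, at 143 and 135, were the highest. RPL13A is also known for a role outside the ribosome, in the silencing of inflammatory mRNAs. RPL34 followed with 69.5 and 66.1 FPKM. The mRNAs of RPL6, RPL29, RPL22, RPL27 and RPL7 lay between 33.6 and 39.8 FPKM by mean. RPL22, which also binds a small viral RNA and is dispensable for the ribosome, had 34.3 and 34.1. RPL9, RPL38 and RPL18 lay between 13.4 and 19.1 FPKM. RPL38, a protein known from the mouse for selective translation of Hox mRNAs, had 13.1 in replicate 1 and 14.2 in replicate 2.

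The lowest 5 mRNAs were all of this group. RPL14 had 4.49 FPKM in replicate 1 and 4.36 in replicate 2, RPL32 had 4.19 and 3.96, and RPL21 had 3.36 and 4.19. RPL27A had 3.75 and 3.76, and RPL35A, given above, was the last. RPL32 and RPL21, and RPL21 and RPL27A, overlapped, so that these positions in the order are not fixed. RPL13, at 7.63 and 7.20, RPL28, at 8.55 and 9.44, RPL37A, at 9.62 and 9.84, RPL36, at 11.3 and 8.64, and RPL37, at 12.3 and 8.95, complete the group.

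Pairs whose names differ only by an added A, which are unrelated proteins, had levels from close to far apart. By mean FPKM, RPL37 was 1.09 times RPL37A, RPL10 was 1.27 times RPL10A and RPL23A was 1.84 times RPL23. The ratio of RPL37 to RPL37A was 1.28 in replicate 1 and 0.909 in replicate 2, so its direction is not settled. That of RPL23A to RPL23 was 3.31 and 1.27. RPL36A was 3.47 times RPL36 and RPL7A was 4.14 times RPL7. The widest gaps were those of RPL27 over RPL27A, 8.98 times, RPL13A over RPL13, 23.3 times, and RPL35 over RPL35A, 25.7 times. The size of these gaps changed when transcript lengths were brought in, here from a later annotation than the authors'. With FPKM multiplied by the canonical transcript length, the last 3 ratios were 0.9997, 12.0 and 9.41. Those of RPL37, RPL10, RPL36A and RPL7A were 2.77, 3.83, 4.35 and 2.98. That of RPL23A to RPL23 became 0.661 by mean. As RPL23 had 7.16 FPKM in replicate 1 and 18.5 in replicate 2, this turn is not settled by 2 libraries. The 18 members that have a counterpart in bacteria had a median of 39.1 FPKM, with 12 above FPKM 30. Of the 25 members without such a counterpart, with the acidic RPLP1 and RPLP2 set aside, 12 were above it, with a median of 24.5. Both groups ran from below 4 FPKM, in RPL27A and RPL35A, to the top of the order, in RPLP0 and RPL39.

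The libraries gave similar values for most members. For 33 of 45 (73.3%) the 2 values were within 1.1 times of each other, where this held for 75.1% of the 10631 names with a mean of at least 1 FPKM. The median absolute difference on the log2(FPKM + 1) scale was 0.07 for the members and 0.06 for those names. Among the 7799 names within the members' own range of levels, 82.3% were within 1.1 times and the median absolute difference was 0.05. Of the members, 25 were lower in replicate 2, against 56.1% of the names with a mean of at least 1 FPKM. Spearman's rho of the libraries was 0.982 across the 45 genes, which are not independent replicates.

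RPL23 was the exception. This protein, which also binds MDM2, had 7.16 FPKM in replicate 1 and 18.5 in replicate 2, a factor of 2.58. No other member differed by more than 1.5 times, a gap found for 2.06% of the names with a mean of at least 1 FPKM. Of the 1279 names with a mean between 10 and 16 FPKM, a range chosen around RPL23 after its values were seen, 2 including RPL23 differed by as much, and the median factor there was 1.04. Behind it came RPL37, by 1.38 times, RPL36, by 1.31 times, both lower in replicate 2, and RPL21, by 1.247 times, higher in replicate 2. The mean of RPL23 was 12.8 ± 7.98 FPKM (SD, n = 2), and its place in the order is accordingly wide.

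How long the transcript model is bears on an FPKM value. The canonical transcripts of GENCODE 44 on GRCh38, a later annotation than the authors', ranged from 390 bases for RPL39 to 7573 for RPL37, while the coding parts ranged from 75 to 1281 bases. Of the 12 members with a transcript of at least 1500 bases, 3 were above FPKM 30, namely RPL15, RPL4 and RPL22, and the median was 10.2. Among the 33 shorter ones 22 were above it, with a median of 36.6. Across the 45 members Spearman's rho of transcript length and level was -0.43, as a description, since all values come from the same 2 libraries and FPKM is itself divided by a length. It was -0.18 among the 33 shorter ones and 0.19 with the coding length. Over 9953 names with a known length and a mean of at least 1 FPKM it was 0.13. Several of the lowest mRNAs had long models, such as RPL14, with 7136 bases, and RPL27A, with 4535. RPL21 and RPL35A, with 566 and 1234 bases, did not. The part of the length in these levels was not tested.

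Copies of the members in the genome were counted as well. Pseudogenes named after the member ranged from 1 for RPLP2 to 133 for RPL21 and came to 1085 in all. Unbroken copies of at least 90% of the coding sequence with at least 90% identity, found by search of GRCh38, numbered 502, from 0 for RPL8 to 60 for RPL21. RPL23A had 39 and RPL39 had 37. Copies of at least 98% identity existed for 22 members, most for RPL21, with 10, and RPL41, with 7.

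Members rich in copies stood at both ends of the order. RPL39 and RPL12, with 37 and 19 copies of at least 90% identity, had 265 and 255 FPKM, whereas RPL21, with 60, had 3.77. Spearman's rho of the level was 0.32 with these copies and 0.12 with named pseudogenes across the 45 members, a description over genes that share the libraries. Among the 33 members with a transcript under 1500 bases it was 0.15 and -0.10. The 22 members with a copy of at least 98% identity had a median of 34.4 FPKM, with 14 above FPKM 30, and the 23 without had 24.5, with 11 above it. The sources used here do not say how reads that fit several places were shared out. Levels of members with near-identical copies are uncertain, and the part of the copies in the levels was not tested.

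Many of these genes carry small nucleolar RNAs (snoRNAs), guides of ribosomal RNA modification, in their introns. GENCODE 44 places 39 of them in 18 members, among them 5 in RPL4, of which 1 has no name, and 4 each in RPL7A, RPL13A and RPL23A. Hosts had a median of 37.2 FPKM and other members 33.7. In each group 55.6% were above FPKM 30. Spearman's rho of level and number of snoRNAs was 0.08 across the 45 members. It was 0.30 among the 33 with a transcript under 1500 bases, and neither was tested. The members lie on 18 chromosomes, and the 3 on the X chromosome, RPL39, RPL36A and RPL10, had 265, 34.5 and 11.9 FPKM.

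RPLP0 is also a target of the primers that the study lists for measuring RNA in cell lysate. They are given 5′ to 3′, in lower case throughout, because this mRNA was the highest of the 45 in the precipitate.
RPLP0-F: gttgctggccaataaggtgc
RPLP0-R: cagctgcacatcactcagga
The forward primer spans the junction of exons 4 and 5 of the canonical transcript (chromosome 12 of GRCh38, 120198997 to 120199133), and the reverse primer that of exons 5 and 6 (120198725 to 120198858). Both lie in the coding part of the 8 exons and bound a product of 178 bases. RPLP0 was near the levels of GAPDH and ACTB, common reference transcripts, at 1.09 and 1.06 times GAPDH and 0.788 and 0.834 times ACTB in replicates 1 and 2.

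Paralogs of the members gave mixed levels. RPL26L1, which differs little from RPL26, measured 60.1 FPKM in replicate 1 and 66.5 in replicate 2. It overlapped with RPL26 itself. RPL7L1, a nucleolar relative of RPL7, had 54.4 and 54.8, or 1.63 times RPL7. RPL36AL, a close relative of RPL36A, had 12.0 and 11.6, so that RPL36A was 2.99 and 2.86 times its level. The others were low. RPL39L, known from testis, had 1.68 and 1.07, RPL22L1 had 0.759 and 0.564, and the muscle form RPL3L had 0.0840 and 0.106. Values of close paralogs may share reads.

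The small subunit, the list most like the members, had a wider spread. Of its 33 mRNAs 13 (39.4%) were above FPKM 30, with a median of 26.2 FPKM and a range from 1.59 for RPS29 to 886 for RPS3A, a ratio of 559 against 131 for the members. RPS3A, RPSA, at 479 FPKM, and RPS24, at 430, were above RPLP0 in both libraries, and RPS28 and RPS29 were the lowest. Its sum was 1.52% of all FPKM in replicate 1 and 1.51% in replicate 2, against 1.40% and 1.46% for the large subunit.

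Other mRNAs known for a TOP tract reached higher levels. Of 14, 10 were above FPKM 30, with a median of 172 FPKM. PABPC1, the poly(A)-binding protein, had 1066 FPKM by mean and EEF1A1, the elongation factor that brings tRNA, had 623. At the other end were TPT1, at 8.82 and 9.54 FPKM in replicates 1 and 2, and EEF1B2, at 9.14 and 8.86. The 10 above the threshold all had more than 100 FPKM, which held for 8 of the 25 members above it.

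The factors that assemble and export the large subunit were lower. Of 27, 5 were above FPKM 30, or 18.5%, with a median of 15.6 FPKM. Of the names with a mean of at least 1 FPKM, 13.3% were above FPKM 30. PES1, of the PeBoW complex that processes the precursor of ribosomal RNA, had 105 and 113 FPKM in replicates 1 and 2, and SDAD1 had 47.3 and 49.0. The lowest were MRTO4, which keeps the place of RPLP0 during assembly, at 2.68 and 2.88, and NLE1, at 2.29 in both libraries. Of the 48 genes of the mitochondrial large subunit, part of the separate ribosome of the organelle, 6 (12.5%) were above FPKM 30, near that 13.3%. This list had a median of 3.48 FPKM. MRPL36 and MRPL20 led it, at 81.2 and 69.3 FPKM by mean, and MRPL53 and MRPL22 closed it, at 0.304 and 0.545. None of these medians was tested against that of the members.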

How the data were processed

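RNA immunoprecipitation from A549 cells was sequenced in 2 libraries. Adapters were trimmed by the authors (cutadapt 1.18), and reads were mapped to GRCh38 (HISAT2 2.1.0), sorted (SAMtools) and assembled and quantified (StringTie 1.3.3b). The deposited values are FPKM per gene and library, without pooling. FPKM depends on the transcript model. The sources used here do not say how transcripts were joined per gene or how reads with several matches were counted. Low values were searched for the steps of whole reads. Of 5405 genes below 0.3 FPKM, at most 76 (1.41%) shared a ratio of the libraries within 0.02 (log2), so no reads were recovered and no interval that needs the depth was computed.

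Means, SDs, orders, medians and counts above FPKM 30 were computed over both libraries. Of several rows with the same name (32 rows repeat an earlier name), the one with the higher mean was kept. Log2 differences between libraries used a pseudocount of 1, and ratios used none. Of the list genes, 3 were found by an older symbol (RefSeq synonyms) and 3 had no row. Transcript lengths, snoRNAs and pseudogenes were read from GENCODE 44, promoters from RefSeq, and copies were found with blastn 2.17.0, with own-gene matches left out. Named genes are the 45 members, 7 paralogs (RPL10L had no row), the highest 2 and lowest 2 of each list, reference transcripts and cell type markers. Some genes under this rule are not reported here. Other genes named were chosen after their values were seen. The members and lists were chosen with earlier results of these data known. The functions were tested on simulated data. Alternatives were thresholds of 20 and 50 FPKM, each library alone, summed rows, other scales, pseudocounts of 0.1 and 0.01 and other member sets. Computing was done with scipy 1.17.1, pandas 2.3.3, numpy 2.4.6 and matplotlib 3.10.9 on Python 3.11.15.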

Additional observations from a re-analysis of the deposited data

How the results depend on the processing

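The count of 25 members above FPKM 30 was the same with the threshold in both libraries, in either library, in a single library and with summed rows, and was 27 at FPKM 20. It was 13 at FPKM 50, because the threshold itself differs. With alternatives chosen after seeing the data it was 11 of the 23 members without a copy of at least 98% identity, and 22 of the 33 with a transcript under 1500 bases. Fewer members enter these sets, and the shares differed too, at 47.8% and 66.7%, against 55.6% of all 45. The median of 33.7 FPKM was 24.5 and 36.6 in these sets. It was between 33.55 and 33.57 with a single library, 172 when values were rescaled to the same total, as in TPM, a change of unit, and 31.6 when multiplied by transcript length in kb. The share of summed FPKM, 1.43%, was 1.49% with both rows of RPL41. No other member had a second row. As RPL41 was above FPKM 30 already, summed rows could not change the count of 25. Spearman's rho of level and transcript length was -0.43, between -0.43 and -0.42 with a single library, -0.18 among transcripts under 1500 bases and 0.19 with the coding length, which changes sign, and the cause was not tested. All rows as background gave 6.73% above FPKM 30, against 13.3%. Multiplied by transcript length, 7 of 45 members stayed within 1 place in the order, and RPL15 came first. The median absolute difference between libraries was 0.07 (log2) with each pseudocount and filter. Dropping the filter of 1 FPKM could not change it, as the lowest member had 3.02 FPKM by mean. No paired analysis was possible because both libraries belong to the same condition. As the depth is unknown, low values have no stated precision.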

Other observations

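The partners of RPL5 and RPL11 outside the ribosome were measured in the same libraries. MDM2, a ubiquitin ligase that free RPL5 and RPL11 bind, had 36.7 FPKM in replicate 1 and 43.0 in replicate 2. CDKN1A, an inhibitor of cyclin-dependent kinases, had 8.11 and 8.26, and MDM4, the relative of MDM2, had 4.83 and 4.65 FPKM. LRPPRC mRNA itself had 184 and 176 FPKM.

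Other genes overlap some members in GENCODE 44. At least 1 protein-coding or long noncoding gene lies on the opposite strand of 20 members and on the same strand of 7. RPL17 and RPL36A are also parts of the readthrough genes RPL17-C18orf32 and RPL36A-HNRNPH2, which were not analysed here. The sources used here do not say whether counting used the strand, so reads of overlapping genes may not be told apart. The 20 members had a median of 32.9 FPKM, with 11 above FPKM 30.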
